A study of Mus musculus with 12 samples.

Results

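Integrins are paired surface receptors, each made of an alpha and a beta chain, by which T cells hold on to other cells and to matrix, and CD44 is a receptor for hyaluronan that marks T cells after activation. The genes described here are 9 integrin chain genes, Itgal, Itgb2, Itga4, Itgb7, Itgae, Itgb1, Itga6, Itgav and Itgb3, together with Cd44. They were chosen by name, with earlier results of these data known. Each of the 10 was found among the 19937 genes measured and had 1 probe set that is annotated to no other gene. All 10 lay above the array median on at least 3 arrays and entered the tests.

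The RNA came from CD4+ T cells of Peyer's patches, lymphoid organs of the gut wall, taken from IL-21eGFP mice, in which a bacterial artificial chromosome makes green fluorescent protein (GFP) report the gene Il21. All 12 arrays come from mice with this reporter, and no treatment is given. Cells negative for MHC II and Epcam fell into 4 gates with 3 arrays each. GFP+ Tfh were T follicular helper cells sorted as CXCR5+PD-1+ and GFP+, GFP- Tfh were CXCR5+PD-1+ without GFP, and the CXCR5+PD1- and CXCR5-PD1- gates were GFP- cells without PD-1. Strain, age, sex and the number of mice behind a sample are not stated in the labels, so p-values measure only how these samples vary, and 3 arrays a gate limit the precision. The sorting protocol names the other 3 gates but not CXCR5+PD1-, and the cell type label reads T follicular helper for all 12 arrays. For the GFP+ arrays the characteristics read CXCR5- and PD1-, against their titles. Gates here follow the titles. Cxcr5 read 8.62 to 9.14 in GFP+ Tfh and 7.91 to 8.61 in GFP- Tfh, against 5.19 to 6.19 in the 6 PD1- arrays.

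Values are log2 expression as deposited, and the level of one gene cannot be set against that of another, because each probe set has its own response. Array medians lay between 6.34 and 6.45, and differences that reach down to that level are compressed. Of 10 T cell identity genes 7 were measured, and all 7 lay above the array median on every array. Their levels were not all even, as 2 of the 7 were higher in the Tfh than in the PD1- gates (5.05% of all genes) and 0 lower. Cd4 was higher by 0.53 ± 0.10 and Cd3g by 0.32 ± 0.09 (SE; limma adjusted p = 0.00457 and 0.047). Of 12 B and plasma cell markers 10 were measured, and 6 of these lay above the median on no array and 0 on every array. Of the 10 epithelial markers 7 lay above it on no array and 2 on every array. Of the 12 myeloid markers 6 lay above it on no array and 3 on every array. The myeloid gene Lyz2 read higher on all GFP+ than on all GFP- Tfh arrays, by 1.38 ± 0.38 (SE; limma adjusted p = 0.416). The rest of the list did not share this rise. Over the 6 myeloid markers tested the median difference was 0.06 and 0 passed, and Cst3 differed by -0.59 ± 0.39 with overlapping arrays. The part of such cells in the values was not tested. The GFP+ arrays scattered most about their gate's mean, by 0.287 to 0.405 (root mean square over genes) against 0.163 to 0.204 in the other 9 arrays. Xist, which is transcribed from an inactive X, read 10.65 to 11.25 in replicate 3 of all 4 gates but 4.87 to 5.49 in replicates 1 and 2. Replicate 3 of each gate thus held RNA of female cells that replicates 1 and 2 lacked, while whether replicates 1 and 2 came from separate mice is not stated, so the spread between those may be technical. Each array is bulk RNA, in which fewer cells that express a gene and less RNA per cell cannot be told apart.

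LFA-1, the pair of Itgal and Itgb2, binds ICAM proteins and holds T cells to B cells and antigen-presenting cells. Itga4 pairs with Itgb7 to bind MAdCAM-1 on gut vessels and with Itgb1 to bind VCAM-1, and Itgae with Itgb7 binds E-cadherin on epithelium. Itga6 with Itgb1 binds laminin, and Itgav pairs with several beta chains, among them those of Itgb3, Itgb1 and Itgb8, to bind RGD-containing proteins and latent TGF-beta.

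**Figure D1:**
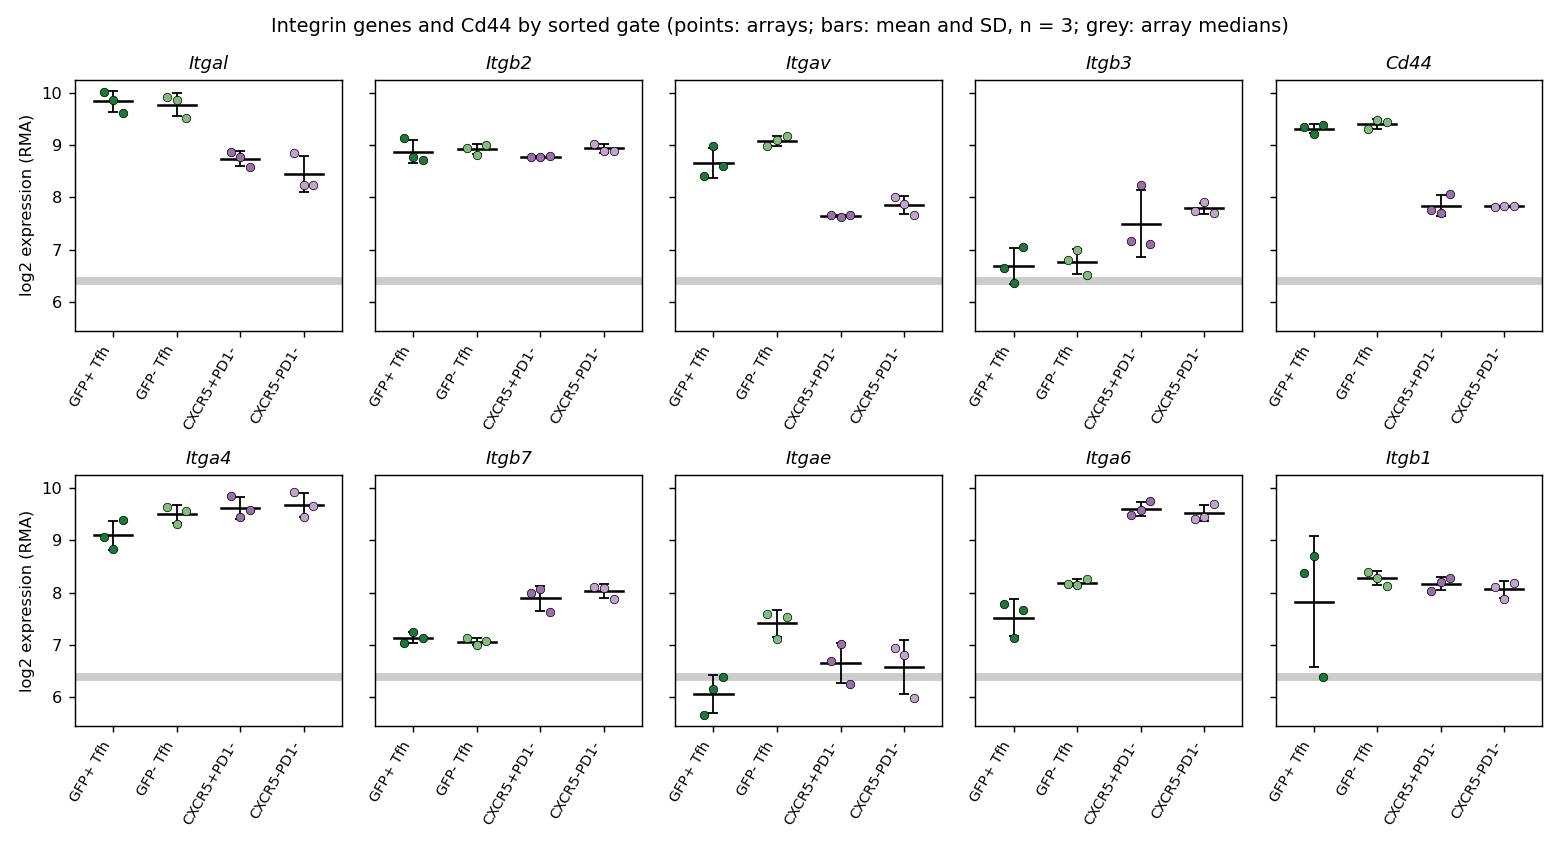
log2 expression of the 10 genes on each array, by gate, with the mean and SD of 3 arrays as bars and the range of array medians as a grey band. Cd44, Itgal and Itgav stand higher and Itga6, Itgb7 and Itgb3 lower in all 6 Tfh arrays than in any PD1- array, and Itgb1 has 1 array at 6.40.

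The Tfh gates were set against the PD1- gates, each pair of gates averaged with equal weight, which asks how the adhesion genes differ in the cells sorted for both Tfh receptors. Cd44, Itgal and Itgav rose, and Itga6, Itgb7 and Itgb3 fell, so 6 of 10 passed an adjusted p of 0.05 in limma, where 10.4% of the 11240 genes tested passed. Of these genes 3 were higher and 3 lower, against 5.05% and 5.33% of all genes, and 7 of 10 had an unadjusted p under 0.05, against 21.5%. The same 6 were those with no overlap between the 6 Tfh and the 6 PD1- arrays, against 7.56% of all genes, with 3 higher (3.49%) and 3 lower (4.07%). The median difference was -0.01 over the 10 and -0.02 over all genes. Each of the 6 passed under all 19 alternatives tried for this comparison.

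In GFP+ Tfh the 3 arrays read 9.33, 9.21 and 9.38 for Cd44, and the GFP- Tfh arrays 9.30, 9.48 and 9.44. The CXCR5+PD1- arrays read 7.75, 7.70 and 8.07, and the CXCR5-PD1- arrays 7.81, 7.83 and 7.84. The Tfh gates thus held one level and the PD1- gates another, with no array between them. Cd44 was 2.87-fold higher in the Tfh gates, a log2 difference of 1.52 ± 0.09 (SE; limma adjusted p = 1.33e-06).

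Itgal, the alpha chain of LFA-1, read 10.01, 9.87 and 9.62 on the GFP+ Tfh arrays and 9.91, 9.86 and 9.52 on those of GFP- Tfh. The PD1- arrays read 8.86, 8.77 and 8.58 with CXCR5 and 8.85, 8.24 and 8.24 without it. Every Tfh array lay above every PD1- array, and the difference was 1.21 ± 0.13, or 2.31-fold (limma adjusted p = 0.000103). Its partner Itgb2, which also pairs with other alpha chains of leukocytes, kept a narrow range, 8.72 to 9.13 in GFP+ Tfh, 8.81 to 8.99 in GFP- Tfh, 8.77 to 8.78 in CXCR5+PD1- cells and 8.89 to 9.03 in CXCR5-PD1- cells. Its difference was 0.04 ± 0.09 and did not pass (limma adjusted p = 0.879). The 95% intervals of the differences, 0.92 to 1.49 for Itgal and -0.15 to 0.23 for Itgb2, did not meet.

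Itgav, the alpha V chain, had values of 8.40, 8.97 and 8.59 in the GFP+ Tfh gate and 8.97, 9.10 and 9.17 in the GFP- Tfh gate. CXCR5+PD1- cells had 7.66, 7.62 and 7.66, and CXCR5-PD1- cells 8.01, 7.87 and 7.67. All 6 Tfh arrays were higher, by 1.12 ± 0.11 or 2.17-fold (limma adjusted p = 3.54e-05). Its partner gene Itgb3 went the other way. For Itgb3 the GFP+ Tfh arrays read 6.66, 6.36 and 7.05 and the GFP- Tfh arrays 6.80, 6.99 and 6.52, against 7.16, 8.23 and 7.10 for CXCR5+PD1- and 7.74, 7.92 and 7.71 for CXCR5-PD1- cells. It fell by 0.91 ± 0.19 (limma adjusted p = 0.0101). The nearest arrays, at 7.05 in GFP+ Tfh and 7.10 in CXCR5+PD1- cells, were close, the lowest Tfh arrays came near the array median, and CXCR5+PD1- replicate 2 at 8.23 stood apart from the other two of its gate. Itgb3 is also a gene of platelets. Of 10 platelet markers 6 were measured, of which 3 lay above the array median on every array and 2 on none. For Tfh over PD1- gates 0 of the 4 tested passed, against 10.4% of all genes. The mean level of the 6 relative to the array median was -0.36 to -0.06 in the Tfh arrays against -0.33 to -0.17 in the PD1- arrays. The part of platelets in the Itgb3 values was not tested.

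A further partner of Itgav was found among the 17 other integrin chain genes, all measured, of which 6 entered the tests. Of these 6, 1 rose (5.05% of all genes) and 0 fell (5.33%). Itgb8, the beta 8 chain, which with alpha V binds latent TGF-beta, rose by 1.55 ± 0.24 (limma adjusted p = 0.00123). Its GFP+ Tfh arrays read 8.52, 7.47 and 6.75 and its GFP- Tfh arrays 8.41, 8.61 and 7.996, against 6.28 to 6.39 in CXCR5+PD1- cells and 6.38 to 6.53 in CXCR5-PD1- cells. The PD1- arrays lay near their array median, so the difference can be understated, and GFP+ Tfh replicate 3 was the lowest of the Tfh arrays. Averaged over the Tfh gates Itgav and Itgb8 were thus higher and Itgb3 lower. Against CXCR5-PD1- cells alone, Itgb8 passed in GFP- Tfh (1.88 ± 0.34, limma adjusted p = 0.00815). In GFP+ Tfh 0 of the 6 other integrin chain genes passed in that comparison, Itgb8 among them.

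**Figure D2:**
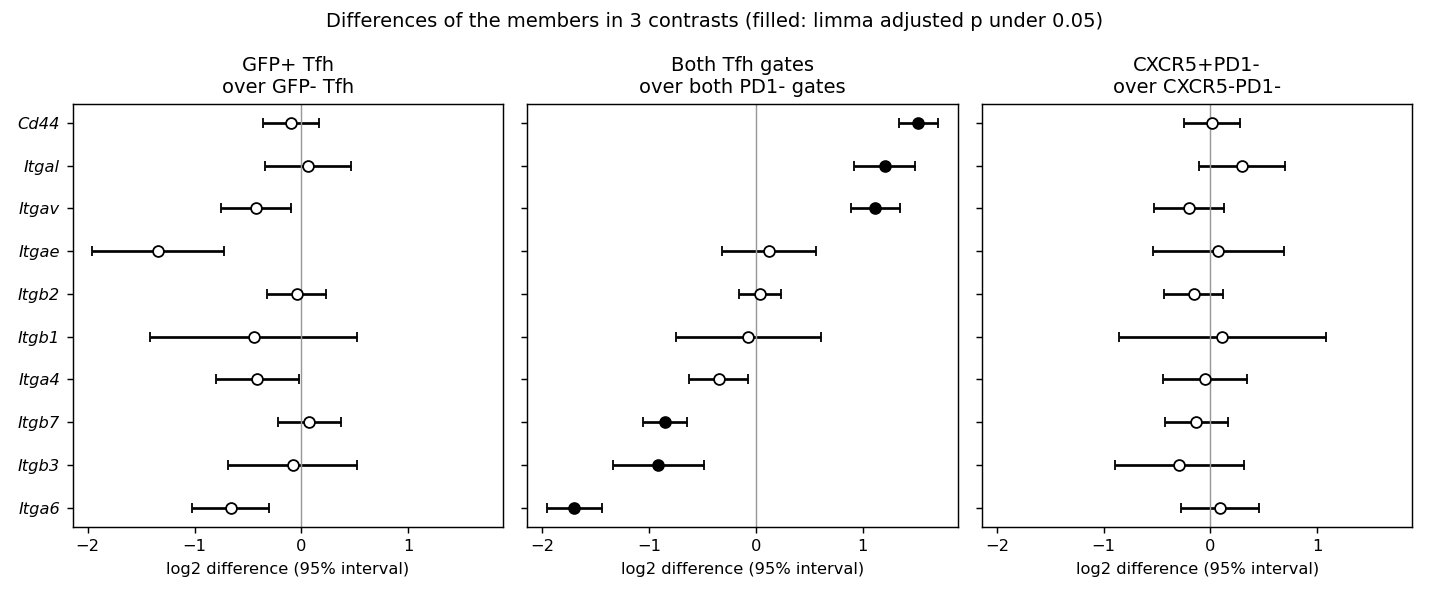
log2 difference of each gene with its 95% interval in 3 contrasts of the 4 gates, where filled points passed a limma adjusted p of 0.05. For Tfh over PD1- gates 3 genes lie to the right and 3 to the left, and in the other 2 contrasts no point is filled, although Itgae and Itga6 lie left of 0 in GFP+ over GFP- Tfh.

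Itga6, the alpha 6 chain of laminin receptors, had the largest difference of the 10. On the GFP+ Tfh arrays it read 7.79, 7.13 and 7.66, and on the GFP- Tfh arrays 8.16, 8.13 and 8.26. Its CXCR5+PD1- arrays read 9.49, 9.57 and 9.75 and its CXCR5-PD1- arrays 9.40, 9.45 and 9.69, each more than 1 log2 unit above every Tfh array. It was 3.25-fold lower in the Tfh gates, a difference of -1.70 ± 0.12 (limma adjusted p = 3.82e-06). Its partner Itgb1, the beta chain shared by many integrins, read 8.38, 8.70 and 6.40 in GFP+ Tfh and 8.13 to 8.40 in GFP- Tfh, against 8.03 to 8.29 in CXCR5+PD1- cells and 7.88 to 8.19 in CXCR5-PD1- cells. GFP+ Tfh replicate 3 stood apart, and the other 11 arrays lay between 7.88 and 8.70. The difference was -0.07 ± 0.31 with all arrays (limma adjusted p = 0.945), and without that array it was 0.29 (limma adjusted p = 0.0914), so it did not pass in either case.

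Itgb7, the beta chain of both pairs that act in the gut, read 7.05, 7.24 and 7.13 for GFP+ Tfh and 7.13, 6.99 and 7.08 for GFP- Tfh. It read 7.98, 8.06 and 7.62 for CXCR5+PD1- and 8.11, 8.09 and 7.87 for CXCR5-PD1- cells. The 6 Tfh arrays were all lower, and Itgb7 fell by 0.85 ± 0.09 on the log2 scale (limma adjusted p = 0.000122). Its partner Itga4 gave 9.07, 8.82 and 9.38 in GFP+ Tfh and 9.63, 9.31 and 9.56 in GFP- Tfh, against 9.85, 9.44 and 9.57 in CXCR5+PD1- cells and 9.92, 9.45 and 9.65 in CXCR5-PD1- cells. The gates overlapped for Itga4, and its difference of -0.35 ± 0.13 did not pass (limma adjusted p = 0.118). It passed with the replicate number as a block (0.041) and without GFP+ Tfh replicate 3 (0.0372). The 95% intervals were -0.62 to -0.07 for Itga4 and -1.06 to -0.64 for Itgb7.

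Itgae, the alpha E chain that with beta 7 binds E-cadherin, did not follow the split by PD-1. The GFP+ Tfh arrays gave 5.67, 6.16 and 6.38 and the GFP- Tfh arrays 7.59, 7.11 and 7.53. The CXCR5+PD1- arrays gave 6.70, 7.02 and 6.25 and the CXCR5-PD1- arrays 6.95, 6.81 and 5.98. All 3 GFP- Tfh arrays lay above the other 9 arrays, all 3 GFP+ Tfh arrays lay below their array median, and the PD1- gates overlapped each other. Averaged over both Tfh gates the difference was 0.12 ± 0.20 and did not pass (limma adjusted p = 0.826).

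Promoters, 250 bases before to 50 after the start, are shown for genes that passed in at least 1 comparison. RefSeq's promoter table (GRCm38.p6) held 3 of these 6 and lacked Itgal, Itga6 and Itgb3. Capitals mark CACCC on either strand, the box that KLF factors bind. TGTGGT, the core that RUNX factors bind, and TTCCNGGAA, a STAT motif, were also searched on both strands and had 0 matches in the 3 sequences. The Itgb7 window is chr15:102231886-102232185, minus strand, that of Itgav chr2:83724147-83724446, plus strand, and that of Cd44 chr2:102901616-102901915, minus strand.
Itgb7: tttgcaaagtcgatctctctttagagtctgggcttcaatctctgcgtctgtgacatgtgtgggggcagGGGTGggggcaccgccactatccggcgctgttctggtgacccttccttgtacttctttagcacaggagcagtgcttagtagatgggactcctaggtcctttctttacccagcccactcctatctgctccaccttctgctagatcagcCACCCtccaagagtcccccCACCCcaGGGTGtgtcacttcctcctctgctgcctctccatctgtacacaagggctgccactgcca
Itgav: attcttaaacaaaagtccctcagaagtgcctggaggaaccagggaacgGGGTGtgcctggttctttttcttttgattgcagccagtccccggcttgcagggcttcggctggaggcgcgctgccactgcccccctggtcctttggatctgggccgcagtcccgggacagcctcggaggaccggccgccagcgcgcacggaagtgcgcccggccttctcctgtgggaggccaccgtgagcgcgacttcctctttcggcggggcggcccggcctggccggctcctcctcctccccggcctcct
Cd44: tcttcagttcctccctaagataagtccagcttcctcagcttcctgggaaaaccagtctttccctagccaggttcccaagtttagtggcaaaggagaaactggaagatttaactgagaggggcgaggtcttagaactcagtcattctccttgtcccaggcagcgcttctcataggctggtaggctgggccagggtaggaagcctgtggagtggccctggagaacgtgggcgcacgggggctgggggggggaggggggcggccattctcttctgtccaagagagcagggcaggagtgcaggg
Itgb7 held 4 matches of CACCC, Itgav 1 and Cd44 0. Of 32851 promoters of the same length in the table, 57.5% held at least 1 such match and 3.1% held 4 or more, while 16.8% held TGTGGT and 1.15% held TTCCNGGAA. The cut of 4 equals the count in Itgb7, the highest of the 3 sequences, so its share carries no test. A match is a run of letters and not a measured binding site.

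**Figure D3:**
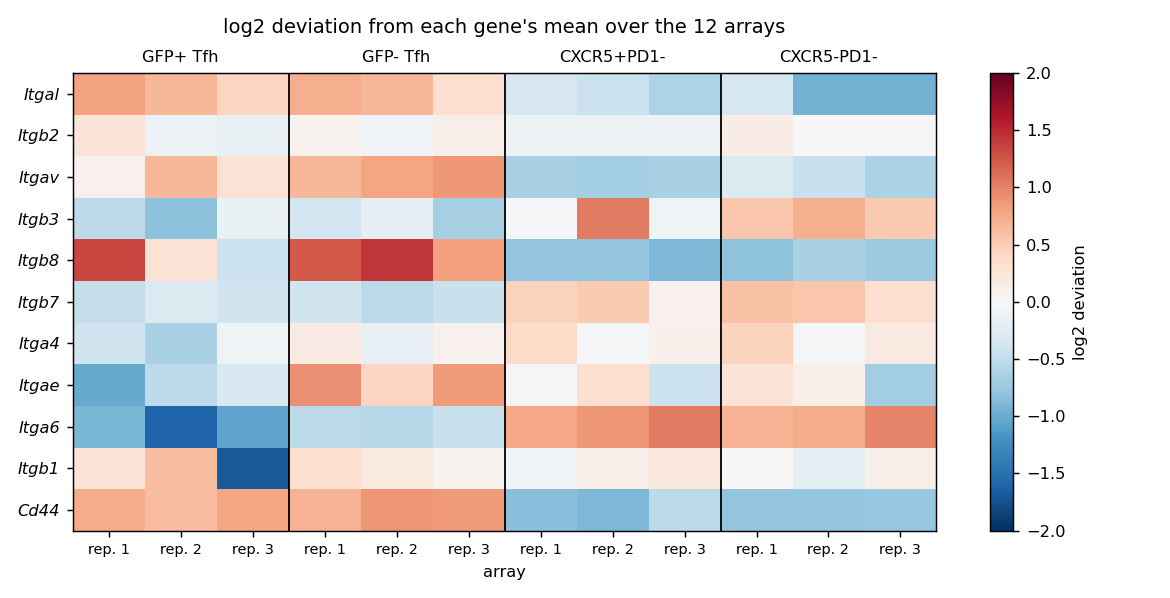
Deviation of each gene from its own mean over the 12 arrays, on the log2 scale, with columns for arrays and black lines between gates, Itgb8 included. Itgav and Itgb8 are red and Itgb3 blue in most Tfh columns, Itgae is red in GFP- Tfh and blue in GFP+ Tfh, and Itgb1 is dark blue in GFP+ Tfh replicate 3.

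The study's stated aim was the comparison of GFP+ Tfh with GFP- Tfh. None of the 10 genes passed in limma, where 0.0445% of all genes tested did, and 4 of 10 had an unadjusted p under 0.05, against 7.37% of all genes. The 4 were Itgae, Itga6, Itgav and Itga4, each with a negative difference. For 3 of the 10 the arrays did not overlap, against 8.74% of all genes. These were Itgae, Itga6 and Itgav, lower on all GFP+ arrays (5.65% of all genes), and 0 were higher throughout (3.09%). The median difference was -0.255 over the 10 and -0.02 over all genes.

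Itgae had the lowest of these differences, -1.34 ± 0.28 (limma adjusted p = 0.22, and 0.0864 or more over its alternatives). It averaged 6.07 ± 0.36 in GFP+ Tfh and 7.41 ± 0.26 in GFP- Tfh (SD, n = 3 each), and as the GFP+ mean lies below the array median the difference may be understated. Itga6 differed by -0.66 ± 0.17 (limma adjusted p = 0.381), and it passed without GFP+ Tfh replicate 1 (limma adjusted p = 0.0419), a setting in which 237 genes passed in place of 5. Itgav differed by -0.43 ± 0.15 (limma adjusted p = 0.558), and its nearest arrays, one of each gate, both read 8.97. Itga4 differed by -0.41 ± 0.18 (limma adjusted p = 0.653), and its arrays overlapped.

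Cd44, Itgal and Itgb7, which separated the Tfh from the PD1- gates, had small differences between the Tfh gates. Cd44 differed by -0.10 with a 95% interval of -0.36 to 0.17, Itgal by 0.06 with -0.34 to 0.47, and Itgb7 by 0.08 with -0.22 to 0.37. Itgb2 differed by -0.04 with an interval of -0.32 to 0.23, while the intervals of Itgb3, -0.68 to 0.52, and Itgb1, -1.41 to 0.52, were wide. Of the other integrin chain genes 0 of the 6 tested passed, against 0.0445% of all genes. Itgb8 differed by -0.76 ± 0.34 with overlapping arrays (limma adjusted p = 0.664), and it passed without GFP+ Tfh replicate 1 (limma adjusted p = 0.0278).

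Regulatory T cells of the mouse gut often carry the alpha E chain, and the mean level of their markers, though not each marker, was highest in GFP- Tfh, as was Itgae. Of 12 such markers, all measured, 11 were tested. In GFP+ against GFP- Tfh 1 fell, where 0.0445% of all genes did. It was the interleukin 2 receptor gene Il2ra (-2.72 ± 0.28, limma adjusted p = 0.00451). In limma 7 of the 11 had an unadjusted p under 0.05, against 7.37% of all genes. Il10 at -1.09 ± 0.30 and Foxp3 at -0.64 ± 0.18 did not pass (limma adjusted p = 0.416 for both). The Il2ra call was lost with the compared gates alone in the fit (-2.72, limma adjusted p = 0.258) and without replicate 3 of every gate (-2.46, limma adjusted p = 0.101). The markers differed in their order over the gates. GFP+ Tfh averaged 5.83 for Il2ra and 7.03 for Foxp3, and GFP- Tfh averaged 8.55 for Il2ra and 7.66 for Foxp3. Both were highest in CXCR5-PD1- cells, at 9.09 for Il2ra and 7.95 for Foxp3. Il10 and Capg were instead highest in GFP- Tfh, as was Itgae. Il10 averaged 7.89 there, against 6.80 in GFP+ Tfh, 6.78 in CXCR5+PD1- and 6.84 in CXCR5-PD1- cells. Capg averaged 7.72 in GFP- Tfh, against 6.82 in GFP+ Tfh, 7.19 in CXCR5+PD1- and 7.03 in CXCR5-PD1- cells. Ikzf2 and Ctla4, also among the 12, were high in both Tfh gates. Over the PD1- gates Ikzf2 rose by 1.87 ± 0.17 and Ctla4 by 1.05 ± 0.11 (limma adjusted p = 2.56e-05 and 9.04e-05). Between GFP+ and GFP- Tfh they differed by only 0.08 ± 0.24 and 0.03 ± 0.16, with overlapping arrays. The mean level of the 12 relative to the array median was 1.35 to 1.58 in GFP+ Tfh against 2.03 to 2.19 in GFP- Tfh, and it was 1.38 to 1.61 in CXCR5+PD1- and 1.42 to 1.76 in CXCR5-PD1- cells. Markers of CD8, NK and intraepithelial T cells, 11 measured of 13, had a mean level of -0.53 to -0.44 in GFP+ Tfh against -0.38 to -0.29 in GFP- Tfh, and 0 of the 8 tested passed. The mean of that list was highest in the PD1- gates, at -0.24 to -0.03 in CXCR5+PD1- and -0.16 to 0.13 in CXCR5-PD1- cells. Single genes of the list differed in their order over the gates. The part of either cell type in the Itgae values was not tested.

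CXCR5+PD1- cells were set against CXCR5-PD1- cells, gates that were sorted to differ in CXCR5. None of the 10 genes passed in limma, as 0% of all genes did, and 0 of 10 had an unadjusted p under 0.05, against 1.22% of all genes. The differences ran from -0.29 ± 0.28 for Itgb3 to 0.29 ± 0.18 for Itgal. For 2 of the 10 the arrays did not overlap, against 8.74% of all genes. These were Itgb2 at -0.16 ± 0.12 and Itgav at -0.20 ± 0.15, both lower (3.36% of all genes), and 0 were higher throughout (5.37%). Cxcr5 RNA averaged 5.61 ± 0.37 in CXCR5+PD1- and 5.71 ± 0.43 in CXCR5-PD1- cells (SD, n = 3 each) and did not separate these gates. Each of these arrays read Cxcr5 below its array median, at -1.23 to -0.22 relative to it. Differences are compressed there, so a difference in Cxcr5 RNA could be missed.

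Each Tfh gate was then set against CXCR5-PD1- cells. Since both comparisons share the CXCR5-PD1- arrays, their values are given side by side only. In GFP+ Tfh 6 of the 10 passed in limma, against 6.2% of all genes, with 3 higher (2.45%) and 3 lower (3.75%). In GFP- Tfh 5 of the 10 passed, against 3.82% of all genes, with 3 higher (2.22%) and 2 lower (1.6%). An unadjusted p under 0.05 was reached by 7 of 10 in GFP+ Tfh (18.7% of all genes) and by 7 of 10 in GFP- Tfh (13.2%). The arrays did not overlap for 7 of 10 in GFP+ Tfh (18.8%), with 3 higher (7.99%) and 4 lower (10.8%), and for 7 of 10 in GFP- Tfh (21.6%), with 4 higher (11.4%) and 3 lower (10.2%).

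Cd44 rose by 1.48 ± 0.12 in GFP+ Tfh and by 1.58 ± 0.12 in GFP- Tfh. Itgal rose by 1.38 ± 0.18 in GFP+ Tfh and 1.32 ± 0.18 in GFP- Tfh, and Itgav by 0.80 ± 0.15 in GFP+ Tfh and 1.23 ± 0.15 in GFP- Tfh. Itga6 fell by 1.99 ± 0.17 in GFP+ Tfh and 1.33 ± 0.17 in GFP- Tfh, and Itgb7 fell by 0.88 ± 0.13 in GFP+ Tfh and 0.96 ± 0.13 in GFP- Tfh. These 5 passed in both gates, with a limma adjusted p of at most 0.00786 in GFP+ Tfh and 0.00182 in GFP- Tfh. In GFP+ Tfh the rise of Itgav did not pass with the compared gates alone in the fit (limma adjusted p = 0.0972) or without replicate 3 of every gate (0.0963).

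Itgb3 differed by -1.10 ± 0.28 in GFP+ Tfh (limma adjusted p = 0.0378) and by -1.02 ± 0.28 in GFP- Tfh (limma adjusted p = 0.0695), nearly the same difference on either side of the threshold. Its GFP+ call was lost under 8 of 14 alternatives, with the highest limma adjusted p at 0.213, while its GFP- difference passed under 2 of 14. Itga4 differed by -0.58 ± 0.18 in GFP+ Tfh (limma adjusted p = 0.0837) and by -0.17 ± 0.18 in GFP- Tfh. In GFP+ Tfh it passed with the replicate block (0.029) and without GFP+ Tfh replicate 3 (0.0304). Itgae differed by -0.51 ± 0.28 in GFP+ Tfh and by 0.83 ± 0.28 in GFP- Tfh, neither past the threshold (limma adjusted p = 0.377 and 0.17), and its 3 GFP- Tfh arrays were all higher than the CXCR5-PD1- arrays.

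The machinery that switches integrins on was examined with a list of 25 genes, of which 24 were measured and 20 tested. For Tfh over PD1- gates 2 rose and 4 fell in limma, against 5.05% and 5.33% of all genes. The list's median difference was -0.05. Rasgrp2, whose product activates the GTPase Rap1 ahead of integrin activation, fell by 2.49 ± 0.16 (limma adjusted p = 2.76e-06), with 6.69 to 7.68 in the Tfh arrays against 9.29 to 10.01 in the PD1- arrays. Rap1a, one of the genes for Rap1 itself, rose by 0.73 ± 0.10, with 11.01 to 11.54 in the Tfh arrays against 10.38 to 10.80 in the PD1- arrays. Rap1b, the other Rap1 gene, went the opposite way and fell by 0.29 ± 0.07 (limma adjusted p = 0.0228), with 11.43 to 11.63 in the Tfh arrays against 11.74 to 11.92 in the PD1- arrays. Its call was lost under 6 of 19 alternatives, with the highest limma adjusted p at 0.161. Cyth1, the gene for cytohesin-1, fell by 0.55 ± 0.16 (limma adjusted p = 0.0457), a call lost under 11 of 19 alternatives, and it and Rap1b were named after their values were seen. Cytip, whose product binds cytohesin-1, a regulator of LFA-1 adhesion, fell by 1.20 ± 0.20 with no overlap. Ptk2b, a kinase of the focal adhesion kinase family, rose by 0.50 ± 0.10 with overlapping arrays. The limma adjusted p was 0.000846 for Rap1a, 0.00248 for Cytip and 0.00684 for Ptk2b. In GFP+ over GFP- Tfh 0 of the 20 passed, against 0.0445% of all genes. Cytip, lower in all 3 GFP+ arrays, differed by -1.06 ± 0.29 (limma adjusted p = 0.416).

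**Figure D4:**
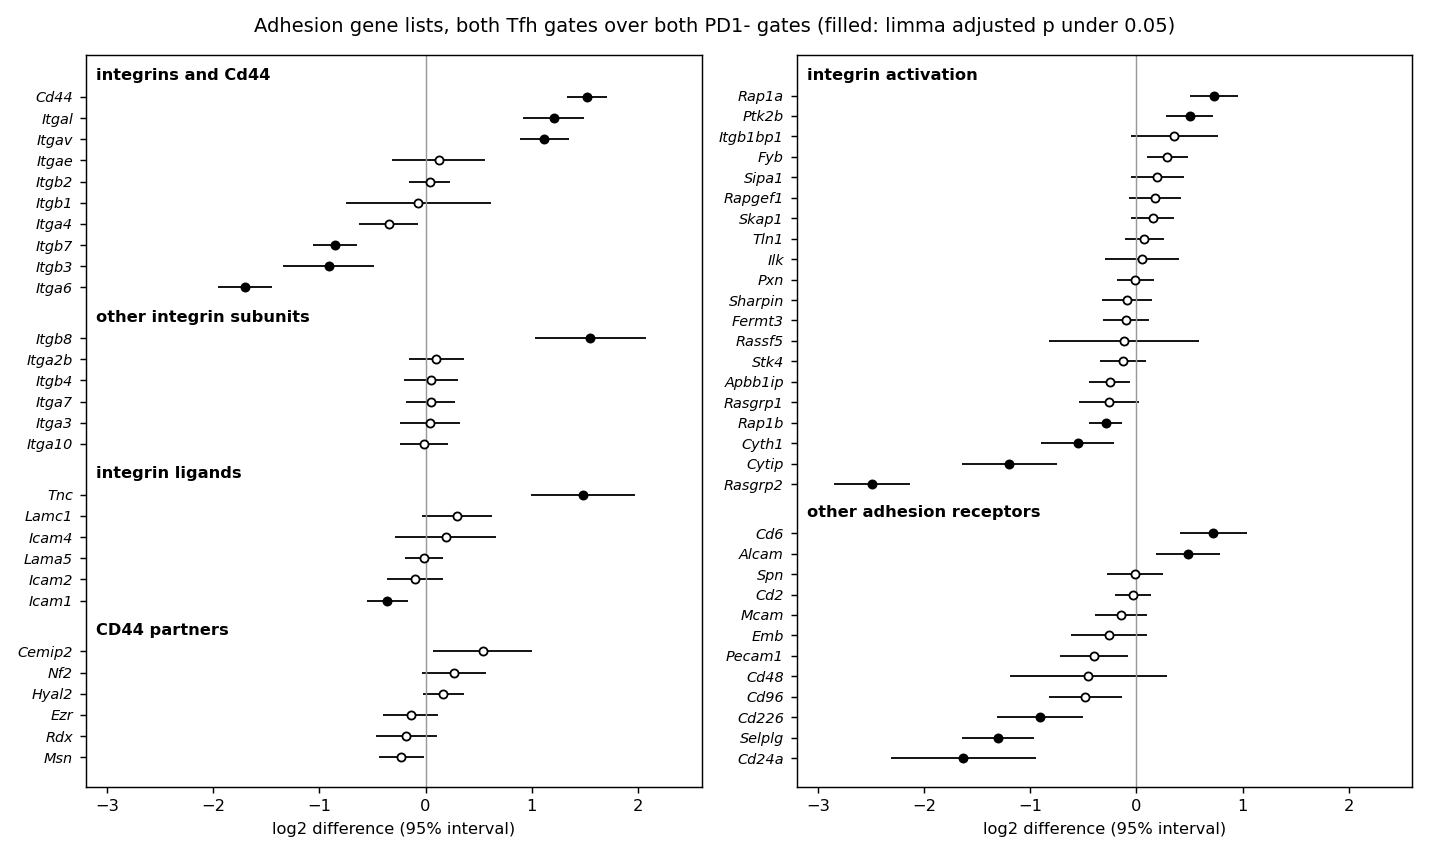
log2 difference with its 95% interval for the tested genes of the adhesion lists, both Tfh gates over both PD1- gates, where filled points passed a limma adjusted p of 0.05. Rasgrp2 lies farthest left at -2.49 and Itgb8 farthest right at 1.55.

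Of 14 genes for integrin ligands 13 were measured and 6 tested. In Tfh over PD1- gates 1 rose (5.05% of all genes) and 1 fell (5.33%). Tnc, which encodes the matrix protein tenascin C, rose by 1.49 ± 0.22 (limma adjusted p = 0.00113), with 7.20 to 8.59 in GFP+ Tfh and 7.29 to 7.94 in GFP- Tfh against 6.03 to 6.68 in the PD1- arrays. Those PD1- arrays read Tnc at -0.36 to 0.25 relative to their array median, so its difference can be understated. Icam1, a ligand of LFA-1, fell by 0.36 ± 0.09 with overlapping arrays (limma adjusted p = 0.0221), and its call was lost under 6 of 19 alternatives. Of 15 genes that act with CD44 or its ligand hyaluronan, 13 were measured and 6 tested. In limma 0 passed in any of the 5 comparisons, in which 0% to 10.4% of all genes passed. An unadjusted p under 0.05 was reached by 0 of these 6 in GFP+ over GFP- Tfh (7.37% of all genes) and by 2 in Tfh over PD1- gates (21.5%). It was reached by 3 in GFP+ Tfh over CXCR5-PD1- cells (18.7%) and by 0 in GFP- Tfh over CXCR5-PD1- cells (13.2%). In CXCR5+PD1- over CXCR5-PD1- cells 0 reached it (1.22%).

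Of 14 other adhesion receptors of lymphocytes 13 were measured and 12 tested. In Tfh over PD1- gates 2 rose (5.05% of all genes) and 3 fell (5.33%). Selplg, the ligand of P-selectin, fell by 1.31 ± 0.15, with 7.22 to 8.16 in the Tfh arrays against 8.88 to 9.33 in the PD1- arrays (limma adjusted p = 0.000204). Cd24a fell by 1.63 ± 0.31 (limma adjusted p = 0.00527) and Cd226, a receptor for nectin-family ligands, by 0.91 ± 0.18 (limma adjusted p = 0.00764), each with overlapping arrays. Cd6, which binds ALCAM, rose by 0.72 ± 0.14 (limma adjusted p = 0.00653). In GFP+ over GFP- Tfh 0 of the 12 passed, against 0.0445% of all genes. Cd226 at -1.27 ± 0.26 and Cd96 at -1.07 ± 0.22 were each lower in all 3 GFP+ arrays (limma adjusted p = 0.206 for both), and they passed without GFP+ Tfh replicate 1 (0.047 and 0.0259).

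Genes of naive and recirculating T cells, which are CD44-low, separated the same gates. Of 12 listed 10 were measured and tested. In Tfh over PD1- gates 10 fell (5.33% of all genes) and 0 rose (5.05%), with a median difference of -1.57. S1pr1, the receptor for exit from lymphoid organs, fell by 2.93 ± 0.17 (limma adjusted p = 1.33e-06) and Ccr7, the receptor for entry into T cell zones, by 2.08 ± 0.14 (limma adjusted p = 3.97e-06). The mean level of the 10 relative to the array median was 1.73 to 2.11 in the Tfh arrays against 3.31 to 3.76 in the PD1- arrays. The part of naive cells in the differences of Cd44, Itgal, Itga6 and Itgb7 was not tested.

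The genes with the most similar pattern over the 12 arrays were taken by Pearson correlation among the genes tested. The 12 arrays share 4 gates, so these values describe the split by gate and carry no test. Itga6 was closest to Crip1 (r = 0.988), Adgre5 (0.985) and S1pr1 (0.983), and Cd44 to Slc9a9 (0.982), Hif1a (0.980) and Sh2d1a (0.980). Itgal was closest to Nsmaf (0.980), Casp1 (0.974) and Ntrk3 (0.968), and Itgb7 to Ttc13 (0.950), Rasgrp2 (0.946) and Dapl1 (0.945). Itgav was closest to Esm1 (0.957) and Itgb3 to Kdm3b (0.943), and lower values were reached for Itgb2 with Tstd2 (0.907), Itga4 with Cflar (0.871) and Itgae with Atf5 (0.860). Itgb1 was closest to Dcaf8 (0.979), a value that was 0.842 over the 11 arrays without GFP+ Tfh replicate 3.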

How the data were processed

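RNA of 12 samples was hybridised to Affymetrix mouse gene arrays. The authors deposited log2 values for 34760 probe sets, and the submitters' processing notes name RMA and oligo. RMA corrects background, equalises the arrays' distributions and summarises probes, so low signals are compressed and a shift common to most genes is removed. All 12 columns were mapped to a sample, and 0 were not.

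Gene names came from GEO's platform table and were brought up to date by gene ID with RefSeq (GRCm38.p6). Of the probe sets 21640 had 1 symbol, 1321 had several and 11799 had none, and only the first kind was used. Where a gene had more than 1 (954 genes), the brightest on average stood for it. Genes above the array median on at least 3 arrays were tested, 11240 of 19937.

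Comparisons were contrasts in 1 limma model (limma 3.58.1, R 4.3.3) of 4 groups with 8 residual degrees of freedom and Benjamini-Hochberg adjustment over all tested genes, with a threshold of 0.05. Differences are given ± the moderated SE, whose spread is estimated over the 4 gates together. The code was tested on simulated data. All 10 genes are named, and of each list up to 4 genes with the smallest p in a comparison. Rap1b and Cyth1 were named in addition, after their values were seen. The genes, lists and motifs were chosen with earlier results of these data known.

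Replicate numbers come from the titles, which do not say what they mark. Xist sets replicate 3 of all 4 gates apart, and fits without it were run. Deviations of same-numbered arrays correlated at 0.210 to 0.353 between CXCR5+PD1- and CXCR5-PD1- cells, all above 0.1. The main fit nevertheless held no replicate block, so the SE and p-values given are unpaired in every comparison. Between GFP+ and GFP- Tfh the correlations were 0.0411 to 0.283, and at least 1 pair lay below 0.1 there and in the other comparisons. Alternatives changed the filter, the normalisation, the weights, the gates fitted and the summary of probe sets, added a replicate block, or omitted arrays.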

Additional observations from a re-analysis of the deposited data

How the results depend on the processing

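Of 745 values of the 10 genes under alternatives, 701 kept their direction and their side of the threshold, 10 lost a call, 7 gained one and 27 changed sign, each of the last without a call. For GFP+ over GFP- Tfh 5 of all genes passed. The count was 3 with 1 weight per group, 0 with the compared groups alone (471 at an unadjusted p under 0.05), 6 with the replicate block, 3 to 237 with 1 array left out (237 without GFP+ Tfh replicate 1) and 0 without replicate 3 of every gate, while 0 to 1 of the 10 passed. GFP- Tfh over CXCR5-PD1- gave 429 genes, 791 with 1 weight per group, 665 with the compared groups alone, 228 (without CXCR5-PD1- replicate 3) to 326 with 1 array left out and 266 without replicate 3 of every gate. GFP+ Tfh over CXCR5-PD1- gave 697 genes, 314 with 1 weight per group, 255 with the compared groups alone, 348 (without CXCR5-PD1- replicate 3) to 1147 (without GFP+ Tfh replicate 1) with 1 array left out and 392 without replicate 3 of every gate. With the replicate number as a block 6, 1247, 0, 544 and 814 genes passed in the 5 comparisons, the last 2 being GFP- and GFP+ Tfh over CXCR5-PD1-, and the block changed no call of the 10 genes but Itga4 in Tfh over PD1- gates and in GFP+ Tfh over CXCR5-PD1-. The cause of these shifts was not tested. In GFP+ over GFP- Tfh, differences with 1 array left out changed sign for Itgal (-0.060 to 0.17), Itgb2 (-0.17 to 0.032, 0.069 without replicate 3 of every gate, 0.035 with cyclic loess), Itgb1 (-0.88 to 0.27, 0.20 without replicate 3 of every gate) and Itgb3 (-0.26 to 0.083). In Tfh over PD1- gates they did so for Itgb2 (-0.025 to 0.077), Itgae (-0.027 to 0.22, -0.24 without replicate 3 of every gate) and Itgb1 (-0.29 to 0.29, 0.38 without replicate 3 of every gate). In CXCR5+PD1- over CXCR5-PD1- cells they did so for Itga4 (-0.17 to 0.072), Itgae (-0.22 to 0.28, -0.021 without replicate 3 of every gate) and Cd44 (-0.098 to 0.087, -0.092 without replicate 3 of every gate). In GFP- Tfh over CXCR5-PD1- cells this held for Itgb2 (-0.055 to 0.034). In GFP+ Tfh over CXCR5-PD1- cells it held for Itgb2 (-0.19 to 0.014) and Itgb1 (-0.67 to 0.48, 0.54 without replicate 3 of every gate). The call of Il2ra in GFP+ over GFP- Tfh was lost with the compared groups alone (-2.72, limma adjusted p = 0.258) and without replicate 3 of every gate (-2.46, 0.101). Signal near the array median limits Itgae, Itgb3, Itgb8 and Tnc.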
